A study of Mus musculus with 6 samples.

Results

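The comparison described here is that of back skin from C57/BL mice 7 days after CyclosporinA with back skin taken 7 days after ethanol, which served as the control. It consists of 2 of the 6 dual-colour arrays of the series, the other 4 being divided equally between days 2 and 4. Both day 7 arrays were used, and the comparison covers all genes: of the 22751 genes that passed a filter on dim probes, 22750 had a ratio at day 7. On each array RNA of cyclosporin A skin carried the dye Cy5 and RNA of ethanol skin the dye Cy3. No array reversed this order, and a gene's dye effect therefore cannot be told apart from treatment. The samples are described as biological replicates, but no label ties them to separate animals. The p-values therefore measure only the spread between these samples. Age, sex, dose, route and hair-cycle stage are not given in the sources used here. The keratinocyte markers Krt5, Krt14, Krt1 and Krt10 were all well above background in both channels of both arrays, with summed intensities of 359276 and 247854 in cyclosporin A skin and 326632 and 407327 in ethanol skin. Whole skin is a mixture, and in such samples fewer cells of a type and less RNA per cell cannot be told apart.

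Cyclosporin A binds cyclophilins, and the complex blocks calcineurin, the phosphatase that lets NFAT transcription factors enter the nucleus. It suppresses T cells, and excess hair growth is a familiar side effect of its use. Hair grows from follicles that cycle between rest and growth. In a growing follicle, matrix cells at the base divide, and their daughters differentiate into the concentric layers of the inner root sheath and the hair shaft, which fill with keratins of their own and with the keratin-associated proteins that cross-link them. Melanocytes of the bulb pass pigment to the shaft, and the dermal papilla beneath the matrix signals to it.

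Each ratio below is on the log2 scale, with cyclosporin A skin in the numerator, and is listed for replicate 1 and then replicate 2. Where tested, it is followed by the mean, the standard error (SE) of limma's fit over the arrays of all 3 days and the p-value of limma's moderated test, adjusted by Benjamini and Hochberg over all genes. A gene was called where that value was under 0.05. At day 7, 681 genes were called (2.99% of those tested), 536 of them higher (2.36%) and 145 lower (0.637%) after cyclosporin A. Counts of calls on the lists below are to be read against these shares. The filter on dim probes also kept genes seen in the day 7 cyclosporin A channel alone, which favours high ratios. How many genes of each list passed that way is not given here. The median gene stood at 0.029. Of the called genes, 280 were at least 2-fold higher and 47 at least 2-fold lower, and 679 of the 681 had the same sign on both arrays. Across all genes the ratios on the 2 day 7 arrays correlated with a Pearson coefficient of 0.588, against 0.427 for the arrays of day 4 and 0.007 for those of day 2; genes within an array are not independent replicates.

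Many calls were lost when a single array was left out. Such a fit also has fewer residual degrees of freedom, so a lost call need not mean that the 2 day 7 arrays disagreed. When each of the 6 arrays was left out in turn, 79 of the 681 genes kept their call every time, and all 79 were higher; 47 of them have a gene symbol. The total fell to 190 without either day 4 array, which supply part of the estimate of spread, to 147 without day 7 replicate 1 and to 164 without day 7 replicate 2. The division between higher and lower calls also moved with the scaling. It was 4389 to 579 under median centring, in which each array is shifted by a constant in place of a curve over intensity, 676 to 40 with the scanner software's own processed signals, 262 to 25 with the deposited ratios and 276 to 44 after scaling the spread of the arrays. It was 336 to 2 with limma's variance trend and robust variance. That trend was fitted over each gene's mean log2 ratio and not over intensity. These settings moved the median gene from 0.029 to 0.166 under median centring and to 0.193 with the processed signals, and list medians under them are given relative to it. The plot of replicate 1 against replicate 2 shows that the genes called without any single array formed an arm of high ratios.

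**Figure D1:**
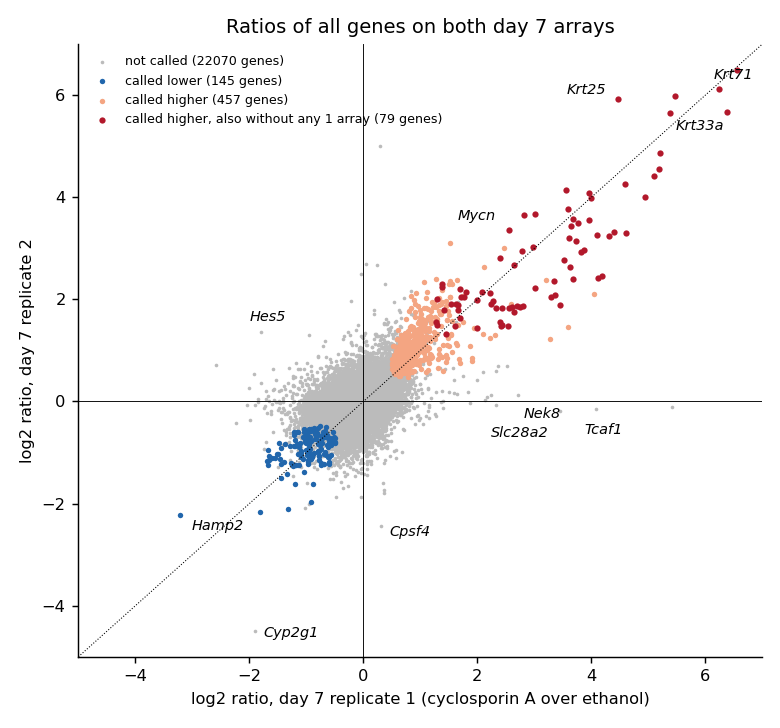
Each point is 1 gene, placed by its log2 ratio of cyclosporin A over ethanol on day 7 replicate 1 (horizontal) and replicate 2 (vertical); the dotted line marks equal ratios. The 79 genes in dark red, called also without any 1 array, lie on the arm reaching Krt71 at 6.24 and 6.12, whereas Tcaf1, Slc28a2 and Nek8 were high on replicate 1 alone.

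The keratins of the inner root sheath and of the hair shaft had the highest ratios among named genes. Of 10 inner root sheath genes listed, 5 were tested, and all 5 were called higher (median 5.20), as were 6 of 7 hair shaft keratins tested of 15 listed (median 3.62), against 2.36% of all genes and a median gene of 0.029. The filter on dim probes kept a gene seen in 1 channel alone. At day 7 Krt26, Krt31, Krt33a, Krt34 and Tchhl1 were well above background in cyclosporin A skin alone. Krt26 passed through the day 7 cyclosporin A channel alone, which favours a high ratio, while Krt33a and Krt34 also passed at days 2 and 4. How Krt31 and Tchhl1 passed is not given here. These counts and medians are a description. Krt71, a type II keratin of the inner root sheath, read 140873 and 92831 in the cyclosporin A channel and 1866 and 1335 in the ethanol channel, and its ratios were 6.24 and 6.12 (mean 6.18, SE 0.14, adjusted p = 2.58e-05), or 72.4-fold. Its intensities did not overlap between the channels, and its pair of ratios lay close together. The share of all genes without such overlap was not counted. Called genes nearly always had the same sign on both arrays (679 of 681), so non-overlap here and below only describes them.

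Krt27 and Krt25 are type I partners of Krt71 in the same sheath. Krt27 read 33332 and 34925 in the cyclosporin A channel and 758 and 551 in the ethanol channel (mean 5.72, SE 0.20, adjusted p = 8.5e-05). Krt25 read 26401 and 42330 in the cyclosporin A channel and 1192 and 697 in the ethanol channel; its ratios of 4.47 and 5.92 lay farther apart than those of Krt27 (mean 5.20, SE 0.31, adjusted p = 0.000684). Krt26, dimmer, had ratios of 3.82 and 2.94 (mean 3.38, SE 0.21, adjusted p = 0.00077, at least 10.4-fold). Its ethanol signal was not well above background on either array; the fold given as "at least" is a bound, which sets the bright channel against the higher, on each array, of the gene's own dim signal and the dimmest signal that the software still counted as above background. For every called gene so described except Krtap1-5 and Tchhl1 its own signal was the higher on both arrays, and the bound then equals the fitted fold. Tchhl1, a trichohyalin-like gene also placed on this list, had the lowest ratios of the 5, 1.14 and 0.80 (mean 0.97, SE 0.13, adjusted p = 0.017, at least 1.85-fold). Tchhl1 lost the call without either day 4 array (adjusted p = 0.0528), without day 7 replicate 1 (adjusted p = 0.134) and without day 7 replicate 2 (adjusted p = 0.0574).

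Among the shaft keratins, Krt33a read 13973 and 7093 in the cyclosporin A channel and 168 and 139.9 in the ethanol channel, with ratios of 6.38 and 5.66 (mean 6.02, SE 0.26, adjusted p = 0.000162, at least 65-fold). It was not well above background in ethanol skin. Krt34 was likewise below that limit in ethanol skin, with ratios of 4.94 and 4.00 (mean 4.47, SE 0.21, adjusted p = 0.000229, at least 22.1-fold). Krt35, a keratin of the lower shaft, was present in ethanol skin and read 20800 and 18017 in the cyclosporin A channel and 1302 and 1138 in the ethanol channel, giving ratios of 4.00 and 3.99 (mean 3.99, SE 0.15, adjusted p = 9.45e-05). Krt86 stood at 3.68 and 3.57 (mean 3.62, SE 0.17, adjusted p = 0.000239), Krt31 at 3.01 and 2.21 (mean 2.61, SE 0.19, adjusted p = 0.00165, at least 6.11-fold) and Krt87, which the list does not hold, at 2.98 and 3.02 (mean 3.0, SE 0.12, adjusted p = 0.00013). These 6 kept their call without any 1 array. Krt82, of the shaft cuticle, had ratios of 1.90 and 0.80 and an adjusted p of 0.0391; the count of called shaft keratins was 5 without either day 2 array, 5 without either day 4 array, 5 without day 7 replicate 1 and 6 without day 7 replicate 2. Krt84 alone of the list was not called, with a mean of 0.14.

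The high ratios stood in runs along the keratin clusters. In the type I cluster of chromosome 11, of which 27 genes were measured, 15 were called higher and none lower. Krt25, Krt26 and Krt27 lie side by side, and the next 3 genes measured, Krt10, Krt20 and Krt23, had means of -0.15, -0.19 and -0.73. Then came a run of keratin-associated genes and the shaft keratins Krt33a, Krt34, Krt31 and Krt35, all called higher but for Krtap3-2 at -0.27. From Krt13 onward the epithelial keratins Krt15, Krt19, Krt9, Krt14, Krt16 and Krt17 ranged from -0.63 to 0.32, and none was called. In the type II cluster of chromosome 15, 5 of 17 genes were called higher: Krt87, Krt86, Krt82, Krt71 and, at 1.13 and 0.85, Krt8, a keratin of simple epithelia. Krt71 lies between Krt5 (-0.50) and Krt2 (0.52), keratins of the epidermis that were not called. Krt8 lost the call without day 7 replicate 1 (adjusted p = 0.115) and without day 7 replicate 2 (adjusted p = 0.0544). Order was read from the RefSeq annotation, and only genes that passed the filter on dim probes are counted. That filter favours high ratios for genes seen in the day 7 cyclosporin A channel alone.

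**Figure D2:**
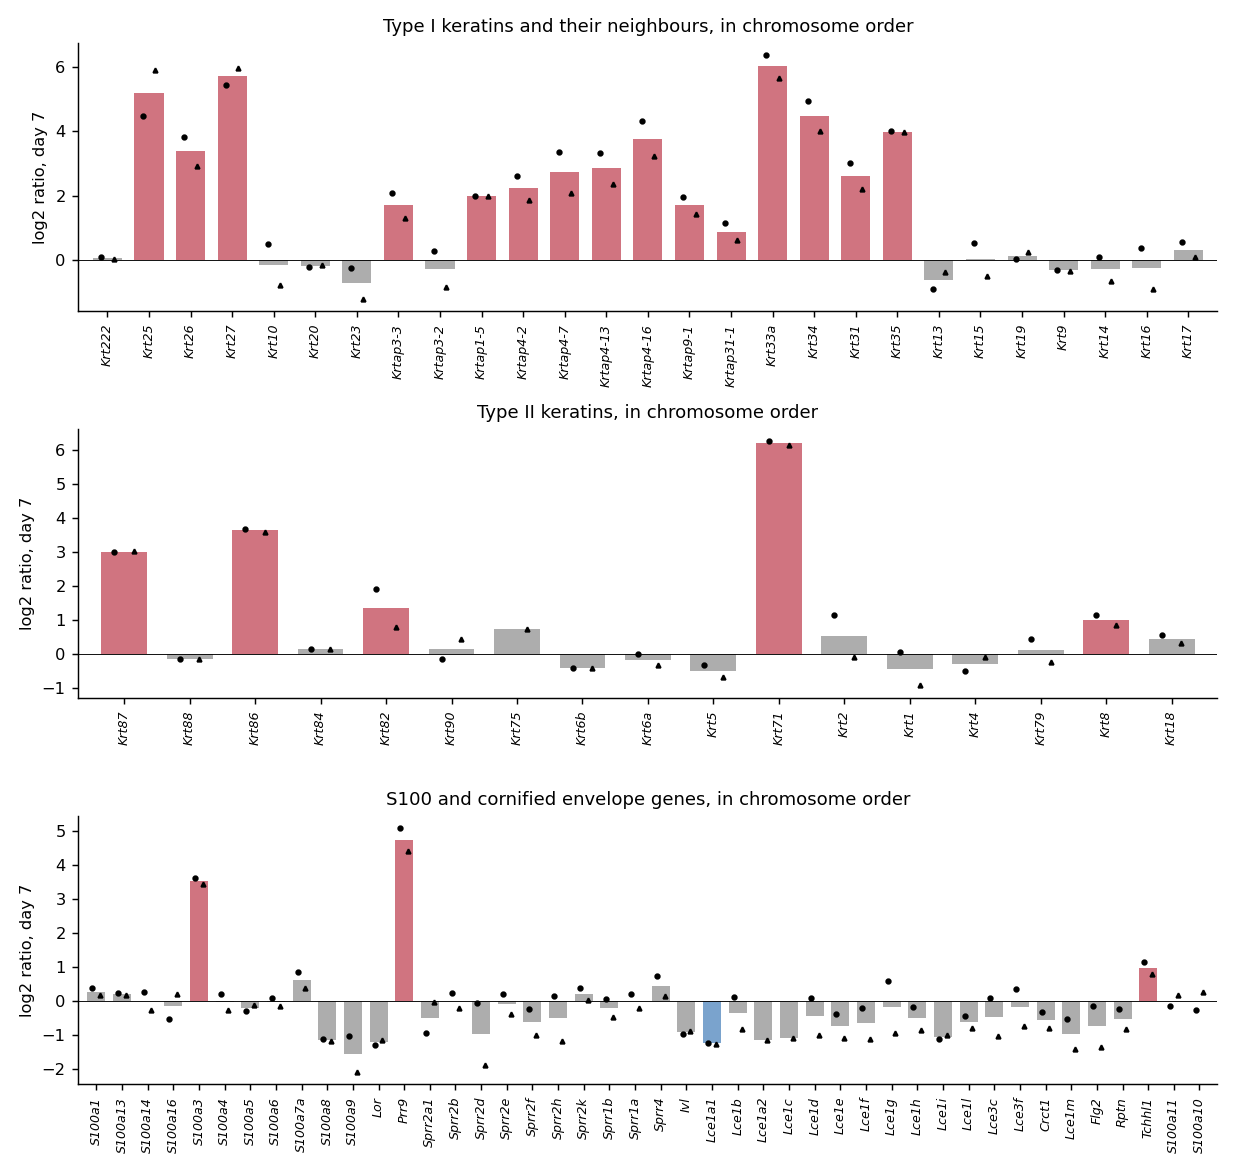
Bars give the mean log2 ratio at day 7 of each measured gene in its order along the chromosome, spaced evenly; circles are replicate 1 and triangles replicate 2, red bars were called higher, blue bars lower and grey bars not called. Tall red bars stand in runs in the keratin clusters, while in the S100 and cornified envelope cluster S100a3, Prr9 and Tchhl1 stand among bars mostly below 0.

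The start regions of these keratin genes often held the TATA box, TATAAA, at which transcription is positioned. The promoters of Krt71, Krt27, Krt25, Krt34 and Krtap4-16 are printed as examples of the inner root sheath, shaft keratin and keratin-associated genes called higher; Krt33a has no entry in the table. Each runs from 250 bases before to 50 bases after the annotated start in RefSeq's GRCm38.p6, 5′ to 3′ on the gene's own strand, with matches to TATAAA in capitals.
Krt71, chr15:101743048-101743347, minus strand: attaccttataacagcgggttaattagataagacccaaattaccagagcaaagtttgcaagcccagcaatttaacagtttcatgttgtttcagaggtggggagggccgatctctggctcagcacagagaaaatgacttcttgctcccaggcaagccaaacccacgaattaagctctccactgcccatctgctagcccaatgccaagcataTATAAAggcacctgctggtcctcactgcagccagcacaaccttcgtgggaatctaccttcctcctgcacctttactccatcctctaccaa
Krt27, chr11:99351069-99351368, minus strand: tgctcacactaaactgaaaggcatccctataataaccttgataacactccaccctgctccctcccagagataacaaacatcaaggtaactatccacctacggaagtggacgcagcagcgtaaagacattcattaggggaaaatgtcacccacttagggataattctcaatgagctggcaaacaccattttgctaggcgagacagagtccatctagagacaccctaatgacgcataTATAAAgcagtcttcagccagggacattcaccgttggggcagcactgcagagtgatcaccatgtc
Krt25, chr11:99322902-99323201, minus strand: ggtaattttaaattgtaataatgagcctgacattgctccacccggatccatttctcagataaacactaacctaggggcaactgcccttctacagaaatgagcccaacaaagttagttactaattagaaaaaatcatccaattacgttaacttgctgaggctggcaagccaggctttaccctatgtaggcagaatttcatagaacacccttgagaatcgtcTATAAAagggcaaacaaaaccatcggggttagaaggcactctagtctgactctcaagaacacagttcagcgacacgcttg
Krt34, chr11:100041505-100041804, minus strand: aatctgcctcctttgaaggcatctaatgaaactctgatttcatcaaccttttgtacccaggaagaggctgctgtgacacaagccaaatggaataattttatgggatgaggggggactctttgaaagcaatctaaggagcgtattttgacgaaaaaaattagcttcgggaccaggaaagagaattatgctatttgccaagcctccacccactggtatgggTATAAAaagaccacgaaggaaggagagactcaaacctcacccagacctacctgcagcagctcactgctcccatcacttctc
Krtap4-16, chr11:99851556-99851855, minus strand: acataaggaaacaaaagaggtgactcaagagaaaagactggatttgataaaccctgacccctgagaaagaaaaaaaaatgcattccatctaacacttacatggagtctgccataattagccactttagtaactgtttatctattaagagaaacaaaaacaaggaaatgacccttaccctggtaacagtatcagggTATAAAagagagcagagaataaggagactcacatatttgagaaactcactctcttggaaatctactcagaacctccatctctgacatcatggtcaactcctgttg
Each of the 5 holds 1 match, which begins 40, 15, 30, 31 and 55 bases before the annotated start, in the order printed. Searched on both strands, TATAAA was present in 21 of 23 promoters of the called keratin and keratin-associated genes on these lists that the table holds (91.3%). It was present in 6 of 21 promoters of the keratin and keratin-associated genes that were not called (28.6%), in 9.65% of the promoters of all named genes tested and in 14.2% of all promoters in the table. Family members share ancestry and are not independent, and these shares are a description.

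Of 26 keratin-associated protein genes that passed the filter, 18 were called higher (69.2% against 2.36% of all genes) and none lower. Their median was 1.97 (2.41 and 1.44 on the 2 arrays), and 25 of 26 were above 0. A gene that passed through the day 7 cyclosporin A channel alone is favoured toward a high ratio. How many did so is not given here, and these values are a description. Keratin-associated proteins, small and cysteine- or glycine-rich, embed the keratin filaments of the shaft. Krtap5-4 read 10336 and 3251 in the cyclosporin A channel and 494 and 327 in the ethanol channel, with ratios of 4.39 and 3.31 (mean 3.85, SE 0.24, adjusted p = 0.000844). Krtap5-1 had ratios of 3.77 and 3.50 (mean 3.63, SE 0.17, adjusted p = 0.000221). Krtap4-16 stood at 4.31 and 3.24 (mean 3.78, SE 0.24, adjusted p = 0.000844, at least 13.7-fold) and was not well above background in ethanol skin. For the 3 genes replicate 1 gave the higher ratio, as it did for the median of the list. Krtap6-1, Krtap4-13, Krtap4-7, Krtap13-1, Krtap4-2, Krtap1-5, Krtap26-1 and Krtap12-1 also kept their calls without any single array, with means from 3.32 for Krtap6-1 down to 1.96 for Krtap12-1. Genes of the Krtap4 and Krtap5 families are near-identical, and signal shared between their probes was not tested. The count of called members was 17 without either day 2 array, 13 without either day 4 array, 13 without day 7 replicate 1 and 21 without day 7 replicate 2.

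Several genes outside the keratin families were as high. Prr9, which lies in the cornified envelope cluster, read 10951 and 4360 in the cyclosporin A channel and 320.4 and 206 in the ethanol channel, with ratios of 5.10 and 4.41 (mean 4.75, SE 0.21, adjusted p = 0.000158). Fbp1, fructose-1,6-bisphosphatase of gluconeogenesis, had ratios of 5.20 and 4.86 (mean 5.03, SE 0.14, adjusted p = 4.25e-05). It was the only call among 45 genes of glycolysis, gluconeogenesis and glycogen (2.22% against 2.99% of all genes, median -0.13). Pck1, of the same pathway, stood at -0.25 and 0.24. Fbp1 read 11445 and 8094 in the cyclosporin A channel and 311 and 279 in the ethanol channel.

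Peptidylarginine deiminases and an S100 protein of the hair were called. Padi3, a peptidylarginine deiminase that converts arginine of trichohyalin and S100a3 to citrulline, read 6385 and 4263 in the cyclosporin A channel and 267 and 224 in the ethanol channel (mean 4.42, SE 0.17, adjusted p = 9.45e-05), and its relative Padi1 had ratios of 0.94 and 0.90 (mean 0.92, SE 0.13, adjusted p = 0.0207). S100a3, a cysteine-rich protein of the hair cuticle, had ratios of 3.64 and 3.44 (mean 3.54, SE 0.14, adjusted p = 9.45e-05); it was 1 of 2 calls among 17 S100 and S100-fused genes (median 0.0016), the other being Tchhl1. Its neighbours S100a16 and S100a4 had means of -0.15 and -0.034. Of the S100 and S100-fused genes, 11.8% were called, against 2.99% of all genes. Gjb2, connexin 26, stood at 3.96 and 4.09 on its brightest probe (mean 4.02, SE 0.12, adjusted p = 4.41e-05), whereas another probe of the gene gave 1.02, so that its size depends on the probe. Gja1, connexin 43, had ratios of 0.92 and 1.13 (mean 1.03, SE 0.14, adjusted p = 0.0189), and the other 10 of 12 connexins tested were not called. Of the connexins, 16.7% were called, against 2.99% of all genes. Padi1 and Gja1 lost their calls without either day 4 array (adjusted p = 0.0603 and 0.0528), without day 7 replicate 1 (adjusted p = 0.148 and 0.103) and without day 7 replicate 2 (adjusted p = 0.123 and 0.135).

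Further genes that kept their call without any single array, and were singled out after their values were seen, do not belong to hair structure by name. Crym, a thyroid-hormone-binding crystallin, read 8452 and 4273 in the cyclosporin A channel and 636 and 485 in the ethanol channel, with ratios of 3.73 and 3.14 (mean 3.44, SE 0.21, adjusted p = 0.000739). Sct encodes the hormone secretin and had ratios of 3.61 and 3.19 (mean 3.40, SE 0.16, adjusted p = 0.000217). Col11a1, a fibrillar collagen chain, stood at 2.82 and 3.66 (mean 3.24, SE 0.22, adjusted p = 0.00119) while the median of 34 collagen genes was 0.079. Lrrc15, a leucine-rich repeat membrane protein, had ratios of 3.01 and 3.68 (mean 3.34, SE 0.24, adjusted p = 0.00169) and 2.21 on a second probe, and Ly6g6d of 3.52 and 2.77 (mean 3.15, SE 0.18, adjusted p = 0.000651). All 5 were higher in the cyclosporin A channel on both arrays, which describes genes picked by their values. Edn2, an endothelin, stood at 1.81 and 2.14 (mean 1.97, SE 0.13, adjusted p = 0.00131), the putative metalloreductase Steap1 at 1.65 and 1.89 (mean 1.77, SE 0.14, adjusted p = 0.00233, at least 3.42-fold) and Ctps, which makes CTP, at 1.69 and 1.64 (mean 1.66, SE 0.11, adjusted p = 0.00133). For Steap1 a dimmer probe gave 0.647. Cryba4, Lrrc75b, Mex3a, Tdh, Adamts18, Pbp2 and Golga7b completed this group, with means from 1.41 for Golga7b to 2.19 for Cryba4.

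**Figure D3:**
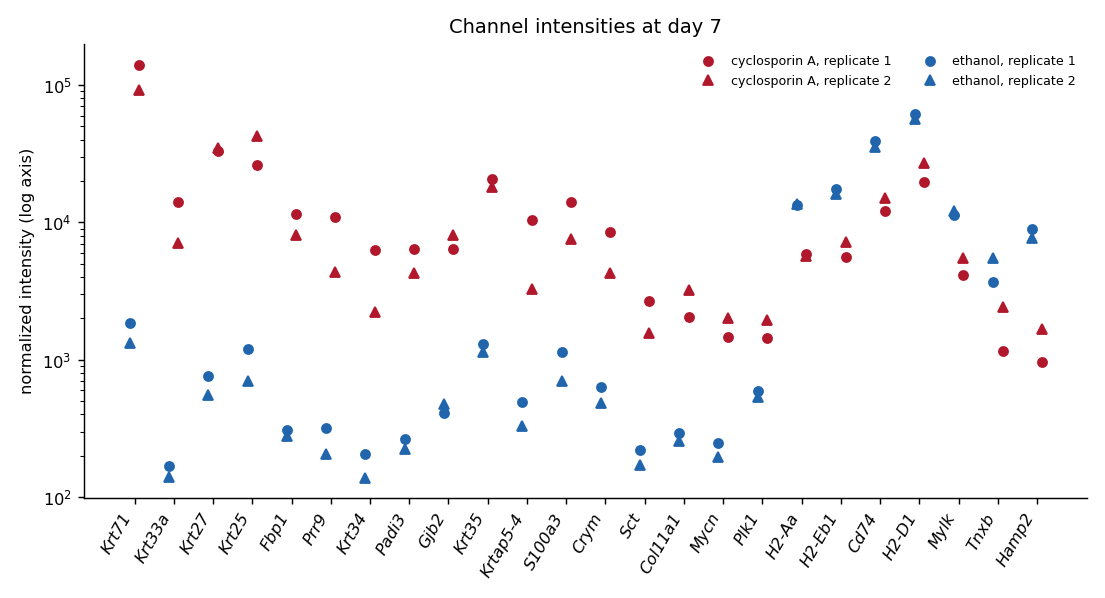
Normalized intensities at day 7 on a log axis for 24 named genes, red for cyclosporin A and blue for ethanol, circles for replicate 1 and triangles for replicate 2. The genes drawn were picked as called, and the share of all genes without overlap was not counted. For every gene drawn the red and blue points do not overlap. Red lies above blue from Krt71 to Plk1 and below it from H2-Aa to Hamp2.

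Regulators of the hair matrix gave calls at lower ratios. Of 29 matrix transcription factors, 9 were called higher (31% against 2.36% of all genes) and none lower (median 0.45, with 0.26 and 0.53 on the arrays). Among those named below, Dlx2, Foxe1 and Hoxc13 were not well above background in ethanol skin at day 7. The filter favours high ratios for genes seen in the day 7 cyclosporin A channel alone, and the count is a description. Msx2, a homeobox factor needed for shaft formation, had ratios of 2.39 and 2.82 (mean 2.60, SE 0.14, adjusted p = 0.000381) and kept its call without any single array. Mycn, chosen after its values were seen, stood at 2.56 and 3.36 (mean 2.96, SE 0.24, adjusted p = 0.00293); a second probe gave 0.837. Dlx2 had ratios of 1.51 and 3.11 (mean 2.31, SE 0.33, adjusted p = 0.022, at least 4.97-fold), Foxe1 of 1.12 and 2.14 (mean 1.63, SE 0.24, adjusted p = 0.0226, at least 3.1-fold), Lef1, the partner of beta-catenin, of 1.10 and 2.03 (mean 1.57, SE 0.22, adjusted p = 0.0214), Dlx3 of 0.85 and 1.42 (mean 1.13, SE 0.16, adjusted p = 0.0226) and Hoxc13 of 0.68 and 1.18 (mean 0.93, SE 0.14, adjusted p = 0.0269, at least 1.91-fold). Replicate 2 was the higher array for each of these 5. Dlx2, Foxe1, Lef1, Dlx3 and Hoxc13 lost their calls without either day 4 array (adjusted p = 0.0575 to 0.0736). Dlx3 and Hoxc13 lost their calls without day 7 replicate 1 (adjusted p = 0.0513 and 0.0548). Foxe1, Lef1, Dlx3 and Hoxc13 lost their calls without day 7 replicate 2 (adjusted p = 0.103, 0.105, 0.137 and 0.152). The count of called factors was 9 without either day 2 array, 2 without either day 4 array, 5 without day 7 replicate 1 and 2 without day 7 replicate 2.

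In the hedgehog pathway, 5 of 16 genes were called higher (31.2% against 2.36% of all genes, median 0.021). Among them were the ligand Shh, its binding proteins Hhip and Scube1 and the effector Gli1. Shh and Gli1 were not well above background in ethanol skin at day 7. The filter favours high ratios for genes seen in the day 7 cyclosporin A channel alone, and the count is a description. Shh had ratios of 1.38 and 2.24 (mean 1.81, SE 0.20, adjusted p = 0.0118, at least 3.51-fold), and was the member that kept its call without any single array. A second probe of Scube1 gave -0.25, opposite in sign to its call. Gli1 stood at 0.51 and 0.83 (mean 0.67, SE 0.13, adjusted p = 0.0486, at least 1.59-fold) and Ptch1, another target, at 0.15 and 0.49 without a call. Gli1 lost the call without either day 2 array (adjusted p = 0.0643). Hhip, Scube1 and Gli1 lost their calls without either day 4 array (adjusted p = 0.0642, 0.0798 and 0.106) and without day 7 replicate 2 (adjusted p = 0.138, 0.19 and 0.249). Scube1 and Gli1 lost their calls without day 7 replicate 1 (adjusted p = 0.113 and 0.135).

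Of 46 Wnt ligands, receptors and targets, 5 were called higher and 1 lower (13% called against 2.99% of all genes, median 0.12). Besides Lef1, the receptor Lgr5 had ratios of 1.12 and 1.01 (mean 1.07, SE 0.16, adjusted p = 0.023) and Tcf7l2 of 0.88 and 0.91 (mean 0.89, SE 0.14, adjusted p = 0.0292), while 2 other probes of Tcf7l2 gave 0.028 and 0.323. The ligand Wnt3 fell, with ratios of -0.96 and -0.80 (mean -0.88, SE 0.15, adjusted p = 0.0382); the target Axin2 stood at 0.21 and -0.073 and the ligand Wnt10b at 0.69 and -0.54, neither called. Among 13 secreted antagonists (median 0.19), Wif1 (0.93 and 2.12; mean 1.53, SE 0.26, adjusted p = 0.0356) and Dkk1 (0.88 and 1.99; mean 1.44, SE 0.25, adjusted p = 0.0367, at least 2.7-fold) were higher and Dkk2 (-0.70 and -1.23; mean -0.96, SE 0.16, adjusted p = 0.035) lower. Of the antagonists, 23.1% were called, against 2.99% of all genes. Ligand and antagonist genes thus stood on both sides of 0. Lgr5, Tcf7l2, Wnt3, Wif1, Dkk1 and Dkk2 lost their calls without either day 4 array (adjusted p = 0.0528 to 0.0915) and without day 7 replicate 2 (adjusted p = 0.11 to 0.191). Lgr5, Tcf7l2, Wnt3 and Dkk2 lost their calls without day 7 replicate 1 (adjusted p = 0.172, 0.175, 0.247 and 0.0795).

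The BMP and TGF-beta list had 4 of 42 called higher and 1 lower (11.9% called against 2.99% of all genes, median -0.0095). Bambi, a pseudoreceptor that blocks these signals, had ratios of 1.66 and 1.78 (mean 1.72, SE 0.12, adjusted p = 0.00141) and kept its call without any single array. Inhba, an activin subunit made in the dermal papilla, stood at 1.0 and 1.02 (mean 1.01, SE 0.14, adjusted p = 0.021), and Fst, the activin-binding follistatin, at -0.86 and -1.01 (mean -0.94, SE 0.17, adjusted p = 0.0413). The BMP antagonist Nog stood at 0.33 and 0.073 and the target Id3 at -0.69 and 0.39, without a call. Heyl was the single call among 23 Notch pathway genes (4.35% against 2.99% of all genes, median -0.03). Its ratios were 1.56 and 2.29 (mean 1.93, SE 0.20, adjusted p = 0.00885), while a second probe gave 0.74. Of the ectodysplasin pathway's 7 genes (median -0.062), the receptor Edar was higher (0.51 and 0.76; mean 0.63, SE 0.12, adjusted p = 0.043) and the cytokine Ltb lower (-0.89 and -1.62; mean -1.25, SE 0.18, adjusted p = 0.0239). Of the ectodysplasin genes, 28.6% were called, against 2.99% of all genes. Fgf5, a growth factor that ends the hair growth phase, was the single call among 46 growth factors (2.17% against 2.99% of all genes, median -0.076). Its ratios were 1.54 and 1.30 (mean 1.42, SE 0.17, adjusted p = 0.0144, at least 2.68-fold). Fst and Edar lost their calls without either day 2 array (adjusted p = 0.0512 and 0.0592). Fst, Edar and Ltb lost their calls without either day 4 array (adjusted p = 0.051, 0.102 and 0.0679). Inhba, Fst, Edar and Fgf5 lost their calls without day 7 replicate 1 (adjusted p = 0.143, 0.197, 0.137 and 0.12). Inhba, Fst, Heyl, Edar, Ltb and Fgf5 lost their calls without day 7 replicate 2 (adjusted p = 0.0573 to 0.226).

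Of 18 dermal papilla genes, 4 were called higher (22.2% against 2.36% of all genes, median 0.38). They were Alpl at 1.09 and 1.59 (mean 1.34, SE 0.26, adjusted p = 0.0483), Corin at 1.16 and 1.21 (mean 1.18, SE 0.11, adjusted p = 0.00599, at least 2.27-fold), and Hhip and Inhba, named above. Corin was not well above background in ethanol skin at day 7. The filter favours high ratios for genes seen in the day 7 cyclosporin A channel alone, and the count is a description. Alpl lost the call without either day 4 array (adjusted p = 0.0961). Alpl and Corin lost their calls without day 7 replicate 1 (adjusted p = 0.172 and 0.0614) and without day 7 replicate 2 (adjusted p = 0.256 and 0.0613). The bulge and hair germ list gave 2 calls higher, Lgr5 and the cadherin Cdh3 (0.81 and 0.70), and 1 lower, Fst, of 16 genes (18.8% called against 2.99% of all genes, median -0.11). Cd34, of the bulge, stood at -0.13 and -0.30. Cdh3 lost the call without either day 4 array (adjusted p = 0.109), without day 7 replicate 1 (adjusted p = 0.269) and without day 7 replicate 2 (adjusted p = 0.188). Of 10 companion layer and outer root sheath genes none was called; Krt17 read 87910 and 61480 in the cyclosporin A channel and 60149 and 57388 in the ethanol channel, and Krt75 had a value on replicate 2 alone, 0.72, because its spot on replicate 1 was an outlier.

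Several pigment genes rose. Of 17 melanocyte and pigment genes, 7 were called higher (41.2% against 2.36% of all genes) and none lower (median 0.42). Pmel, the fibrillar protein of melanosomes, read 2603 and 3636 in the cyclosporin A channel and 469 and 454 in the ethanol channel, with ratios of 2.47 and 3.0 (mean 2.74, SE 0.24, adjusted p = 0.00398). Dct, dopachrome tautomerase, read 28405 and 30023 in the cyclosporin A channel and 6553 and 4871 in the ethanol channel (mean 2.37, SE 0.28, adjusted p = 0.0143), and a second probe gave 2.31. Tyrp1 stood at 1.65 and 2.38 (mean 2.01, SE 0.20, adjusted p = 0.00771) and the transporter Slc45a2 at 2.24 and 1.91 (mean 2.08, SE 0.16, adjusted p = 0.00244). For each, both cyclosporin A intensities exceeded both ethanol intensities, which describes genes picked as called. The growth factor Kitl, on which melanocytes depend, stood at 0.18 and 0.59 and was not called. Dct lost the call without day 7 replicate 1 (adjusted p = 0.08). Pmel, Dct and Tyrp1 lost their calls without day 7 replicate 2 (adjusted p = 0.0521, 0.113 and 0.0521). The summed intensity of the melanocyte markers Dct, Pmel and Tyrp1 was 31539 and 34531 in cyclosporin A skin and 7192 and 5493 in ethanol skin.

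Genes of cell division gave many calls, at moderate ratios. Of 51 mitosis genes, 25 were called higher (49% against 2.36% of all genes), none lower, and 50 were above 0 (median 0.97, with 0.65 and 1.33 on the arrays). Of 51 DNA replication genes, 22 were called higher (43.1%) and all 51 were above 0 (median 0.76, with 0.62 and 0.99 on the arrays). Replicate 2 had the higher median in both lists. Birc5, survivin, read 6632 and 9475 in the cyclosporin A channel and 2303 and 2299 in the ethanol channel, with ratios of 1.53 and 2.04 (mean 1.78, SE 0.22, adjusted p = 0.0158). Plk1, a mitotic kinase, had ratios of 1.27 and 1.85 (mean 1.56, SE 0.19, adjusted p = 0.0143), Sgo1, which guards sister chromatid cohesion, of 1.37 and 1.91 (mean 1.64, SE 0.17, adjusted p = 0.00864) and Ccna2, cyclin A2, of 1.33 and 2.02 (mean 1.68, SE 0.24, adjusted p = 0.0227). In S phase, Uhrf1 stood at 0.96 and 1.86 (mean 1.41, SE 0.27, adjusted p = 0.0482), Tk1, thymidine kinase, at 1.15 and 1.43 (mean 1.29, SE 0.22, adjusted p = 0.0348), Mcm2, of the replicative helicase, at 0.90 and 1.66 (mean 1.28, SE 0.24, adjusted p = 0.0442) and Rrm2, of ribonucleotide reductase, at 0.87 and 1.46 (mean 1.17, SE 0.16, adjusted p = 0.021). Under the 6 fits that each left out 1 array, none of the 47 calls on the 2 lists held throughout. The count of called mitosis genes was 24 without either day 2 array, 8 without either day 4 array, 11 without day 7 replicate 1 and 0 without day 7 replicate 2, and that of replication genes was 21 without either day 2 array, 3 without either day 4 array, 1 without day 7 replicate 1 and 0 without day 7 replicate 2. Replication genes called higher numbered 43 under median centring, 20 with the processed signals, 6 with the deposited ratios and 9 with trend and robust variance. Ccna2, Uhrf1, Mcm2 and Rrm2 lost their calls without either day 4 array (adjusted p = 0.0528, 0.0915, 0.0801 and 0.0575). Birc5, Ccna2, Uhrf1, Tk1, Mcm2 and Cdc20 lost their calls without day 7 replicate 1 (adjusted p = 0.0729 to 0.167). Birc5, Plk1, Sgo1, Ccna2, Uhrf1, Tk1, Mcm2, Rrm2 and Cdc20 lost their calls without day 7 replicate 2 (adjusted p = 0.0659 to 0.25). The inhibitor Cdkn1a stood at 0.16 and -0.17, and 0 of 23 cell cycle inhibitors and p53 targets were called (median -0.10).

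The promoters of Plk1 and Cdc20 are printed as examples of the mitosis list, chosen because both hold TTTGAA, the core of the cell cycle homology region through which mitotic genes are held silent outside division, and CCAAT, to which NF-Y binds; both motifs are in capitals.
Plk1, chr7:122159185-122159484, plus strand: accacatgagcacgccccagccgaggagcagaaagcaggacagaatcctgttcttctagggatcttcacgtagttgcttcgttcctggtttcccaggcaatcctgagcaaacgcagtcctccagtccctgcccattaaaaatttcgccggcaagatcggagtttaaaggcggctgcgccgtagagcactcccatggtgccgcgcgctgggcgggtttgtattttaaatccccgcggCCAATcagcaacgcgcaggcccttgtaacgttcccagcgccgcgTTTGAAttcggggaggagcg
Cdc20, chr4:118437294-118437593, minus strand: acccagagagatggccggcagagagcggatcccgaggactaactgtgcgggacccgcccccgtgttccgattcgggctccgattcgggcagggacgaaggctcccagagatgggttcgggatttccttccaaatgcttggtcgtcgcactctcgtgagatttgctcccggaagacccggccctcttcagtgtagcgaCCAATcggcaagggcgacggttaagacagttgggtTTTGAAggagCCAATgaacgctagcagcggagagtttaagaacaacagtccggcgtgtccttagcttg
Cdc20, the activator of the anaphase-promoting complex, had ratios of 1.47 and 1.60 (mean 1.53, SE 0.16, adjusted p = 0.00822). Its promoter has CCAAT 53 and 8 bases and TTTGAA 18 bases before the start. That of Plk1 has CCAAT 14 bases before and TTTGAA 30 bases after it. On either strand TTTGAA was found in 65% of 20 promoters of the called mitosis genes and in 69.6% of 23 of the other mitosis genes, against 13.1% of named genes tested and 18.1% of all promoters. CCAAT was found in 75% and 73.9% of the same mitosis promoters and in 38.6% of named genes tested. TATAAA was in 0 of the 20 promoters of called mitosis genes.

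Genes that supply growing cells gave a few calls. Of 39 genes of amino acid transport, polyamine and cysteine supply, 5 were called higher (12.8% against 2.36% of all genes) and none lower (median 0.14). The amino acid transporters Slc7a8 and Slc7a5 had ratios of 1.74 and 1.56 (mean 1.65, SE 0.26, adjusted p = 0.0279) and 0.83 and 1.28 (mean 1.05, SE 0.14, adjusted p = 0.018). Arg2, an arginase, stood at 1.02 and 1.72 (mean 1.37, SE 0.21, adjusted p = 0.0264) and Odc1, which makes putrescine, at 1.44 and 0.91 (mean 1.17, SE 0.20, adjusted p = 0.0358). Odc1 was bright in both channels, reading 14112 and 19879 in the cyclosporin A channel and 5198 and 10605 in the ethanol channel, and its 2 other probes gave 0.6 and 0.534. Slc7a8, Slc7a5, Arg2 and Odc1 lost their calls without either day 4 array (adjusted p = 0.0713, 0.055, 0.0664 and 0.0887) and without day 7 replicate 2 (adjusted p = 0.149, 0.116, 0.16 and 0.106). Slc7a8, Arg2 and Odc1 lost their calls without day 7 replicate 1 (adjusted p = 0.199, 0.0668 and 0.251).

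Both deiodinases on the list of nuclear receptors and hormone enzymes were called higher, of 26 genes tested (7.69% called against 2.99% of all genes, median -0.18). None of the list was called with the processed signals or the deposited ratios. Dio3, which inactivates thyroid hormone, had ratios of 1.62 and 1.14 (mean 1.38, SE 0.17, adjusted p = 0.0158, at least 2.6-fold). Dio2, which activates it, had ratios of 0.89 and 0.76 (mean 0.82, SE 0.11, adjusted p = 0.021). The receptor genes Thrb and Vdr stood at 0.31 and 0.20 and at 0.081 and 0.82 and were not called. Dio3 and Dio2 lost their calls without either day 4 array (adjusted p = 0.051 and 0.0608), without day 7 replicate 1 (adjusted p = 0.121 and 0.157) and without day 7 replicate 2 (adjusted p = 0.0521 and 0.11).

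Lipid enzymes divided. Fasn, fatty acid synthase, was among the brightest genes and read 108766 and 134863 in the cyclosporin A channel and 53809 and 48128 in the ethanol channel, with ratios of 1.02 and 1.49 (mean 1.25, SE 0.16, adjusted p = 0.017), and the desaturase Fads2 stood at 0.88 and 0.95 (mean 0.92, SE 0.12, adjusted p = 0.0168). Awat2, a wax synthase of sebaceous glands, fell, with ratios of -0.96 and -1.18 (mean -1.07, SE 0.16, adjusted p = 0.0259). These were the 3 calls among 31 sebaceous gland and lipid genes (9.68% against 2.99% of all genes, median -0.10). The list median relative to the median gene was -0.13 with loess, 0.15 under median centring and -0.15 with the processed signals, so that its sign turned under median centring. Fasn was also the single call among 27 adipocyte genes (3.7% against 2.99% of all genes, median 0.27), where Adipoq stood at -0.048 and 0.34. Fads2 and Awat2 lost their calls without either day 4 array (adjusted p = 0.0528 and 0.0704). Fasn, Fads2 and Awat2 lost their calls without day 7 replicate 1 (adjusted p = 0.0586, 0.111 and 0.135) and without day 7 replicate 2 (adjusted p = 0.119, 0.117 and 0.169).

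Ribosomal protein genes supplied the brightest calls. Of 78 cytosolic ribosomal protein genes, 5 were called higher (6.41% against 2.36% of all genes) and none lower (median 0.19). Rps23 read 235709 and 216308 in the cyclosporin A channel and 131262 and 143191 in the ethanol channel, with ratios of 0.84 and 0.60 (mean 0.72, SE 0.12, adjusted p = 0.0339). Rpl7a, Rpl41 and Rpl34 stood at 0.79 and 0.67, 0.93 and 0.92 and 0.73 and 0.61, and Rack1, a ribosome-bound scaffold, at 0.61 and 0.79. Probes disagreed for these genes: the dimmer probes of Rpl7a gave -0.303 and -0.465, that of Rpl34 -0.108 and that of Rack1 -0.555. The mean over its probes put Rpl7a at -0.013. The RNA-binding protein gene Hnrnpab, also among the brightest calls, stood at 0.90 and 1.03, with other probes at 0.384 and 0.376. The ribosomal list's median relative to the median gene was 0.16 with loess, 1.0 under median centring and 0.15 with the processed signals, so that 66 of its genes were called under median centring and 0 with the processed signals. Calls on this list thus depended on the scaling. Rps23, Rpl7a, Rpl41, Rpl34 and Rack1 lost their calls without either day 4 array (adjusted p = 0.0679 to 0.0902). Rps23, Rpl7a, Rpl41, Rpl34, Rack1 and Hnrnpab lost their calls without day 7 replicate 1 (adjusted p = 0.081 to 0.226) and without day 7 replicate 2 (adjusted p = 0.105 to 0.197).

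The genes called lower included many of antigen presentation, but no lower call held in all 6 fits that left out 1 array. Of 19 MHC class II and Langerhans cell genes, 5 were called lower and none higher (median -0.40; -0.28 and -0.54 on the arrays), against 0.637% of all genes. Cd74, the invariant chain, read 12202 and 15016 in the cyclosporin A channel and 38981 and 35413 in the ethanol channel, with ratios of -1.68 and -1.24 (mean -1.46, SE 0.19, adjusted p = 0.0169). H2-Aa and H2-Eb1, the alpha chain of one class II molecule and the beta chain of another, had ratios of -1.2 and -1.25 (mean -1.22, SE 0.12, adjusted p = 0.00745) and -1.65 and -1.15 (mean -1.40, SE 0.18, adjusted p = 0.017), and H2-DMb2, of the peptide-loading molecule, of -1.55 and -1.10 (mean -1.32, SE 0.16, adjusted p = 0.015), while second probes of H2-DMb2 and H2-Aa gave -0.046 and -0.80. The intensities of the 4 genes did not overlap between channels, which describes genes picked as called. Ciita, the factor that drives class II transcription, stood at -1.74 and -0.93 with an adjusted p of 0.123, and H2-Ab1 had a mean of -0.66 without a call. Cd207, langerin of Langerhans cells, stood at 0.17 and -0.30 and was not called. H2-DMb2 lost the call without either day 4 array (adjusted p = 0.051). Cd74, H2-Aa, H2-Eb1 and H2-DMb2 lost their calls without day 7 replicate 1 (adjusted p = 0.138, 0.0727, 0.137 and 0.118) and without day 7 replicate 2 (adjusted p = 0.0702, 0.0702, 0.059 and 0.051). The list's median relative to the median gene was -0.43 with loess, -0.34 under median centring and -0.66 with the processed signals, but the count called lower was 3 under median centring, 0 with the processed signals, 1 with the deposited ratios and 0 with trend and robust variance.

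Of 19 genes of MHC class I presentation, 6 were called lower (31.6% against 0.637% of all genes) and none higher (median -0.67, with -0.45 and -0.85 on the arrays). By limma without adjustment, 15 had a p under 0.05, against 5024 of the 22750 genes tested. H2-D1, a classical class I heavy chain, read 19755 and 26878 in the cyclosporin A channel and 61959 and 56540 in the ethanol channel, with ratios of -1.65 and -1.07 (mean -1.36, SE 0.17, adjusted p = 0.0164). H2-Q1, H2-Q10 and H2-T22 stood at -1.68 and -0.96, -0.78 and -1.07 and -0.70 and -1.03. B2m, the light chain shared by all class I molecules, had ratios of -0.45 and -0.48 and an adjusted p of 0.0731, and Psmb8, of the immunoproteasome, of -0.39 and -0.53. H2-Q and H2-T genes are near-identical, and cross-hybridization between them was not tested; other probes of H2-Q10 ran from -0.832 to 0.78. The list median relative to the median gene was -0.70 with loess, -0.15 under median centring and -0.79 with the processed signals. H2-Q1, H2-Q10 and H2-T22 lost their calls without either day 4 array (adjusted p = 0.0655, 0.0883 and 0.0707) and without day 7 replicate 2 (adjusted p = 0.0521, 0.204 and 0.197). H2-D1, H2-Q1, H2-Q10 and H2-T22 lost their calls without day 7 replicate 1 (adjusted p = 0.113, 0.182, 0.152 and 0.119). The count of class I genes called lower was 0 under median centring, 0 with the processed signals, 1 with the deposited ratios and 0 with trend and robust variance.

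The promoters of H2-Aa and H2-Eb1 are shown because the 2 genes fell together on both arrays; CCAAT, the core of the Y box of class II promoters, is in capitals on either strand (ATTGG on the opposite one).
H2-Aa, chr17:34287774-34288073, minus strand: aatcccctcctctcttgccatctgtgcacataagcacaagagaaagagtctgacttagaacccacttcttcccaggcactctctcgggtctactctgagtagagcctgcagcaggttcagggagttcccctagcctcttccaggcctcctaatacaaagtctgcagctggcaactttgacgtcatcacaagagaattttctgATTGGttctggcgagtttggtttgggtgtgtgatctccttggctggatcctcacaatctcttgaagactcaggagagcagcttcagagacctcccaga
H2-Eb1, chr17:34305617-34305916, plus strand: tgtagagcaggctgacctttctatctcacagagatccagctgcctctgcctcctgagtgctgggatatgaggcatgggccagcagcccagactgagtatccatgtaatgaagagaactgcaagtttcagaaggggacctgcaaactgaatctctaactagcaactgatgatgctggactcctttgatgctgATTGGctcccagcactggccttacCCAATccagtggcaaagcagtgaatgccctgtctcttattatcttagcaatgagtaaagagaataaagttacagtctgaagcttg
The match of H2-Aa begins 48 bases before the annotated start and those of H2-Eb1 59 and 35 bases before it. CCAAT was in 6 of 7 promoters of called MHC genes held in the table and in 6 of 7 of the other MHC genes, against 38.6% of named genes tested. GGAAA, the core bound by NFAT, was in 56.7% of promoters of named genes called higher, 66.3% of those called lower and 58.8% of all named genes tested. CTTTGA, the core bound by LEF and TCF factors, which overlaps TTTGAA in its letters, was in 14.3% of the first, 13% of the second and 13.2% of the third.

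The lists of T cells and macrophages gave no call. None of 21 T cell genes (median -0.26) and none of 27 macrophage genes (median -0.27) was called. Unadjusted p by limma was under 0.05 for 8 and 7 of them, against 5024 of the 22750 genes tested. Of the T cell genes, however, 4 were called lower under median centring, 1 with the deposited ratios and 2 without either day 2 array, and the list median relative to the median gene was -0.29 with loess, -0.46 under median centring and -0.53 with the processed signals. The summed intensity of the T cell markers Cd2, Cd3d, Cd3e, Cd3g, Lck and Thy1 was 19376 and 21637 in cyclosporin A skin and 21793 and 20435 in ethanol skin, so that the channels overlapped, and 5 of the 6 were well above background in both. That of the macrophage markers Adgre1, C1qa and C1qb was 10243 and 14769 against 15909 and 17449, and that of the Langerhans cell markers Cd207, Cd74, Epcam and H2-Aa 26890 and 26981 against 60191 and 56818. The Langerhans sum rests on Cd74 and H2-Aa, which are themselves the class II genes called lower; the other markers, Cd207 and Epcam, had means of -0.062 and -0.08 and were not called. The part of these markers in the MHC ratios was not tested. Of 39 interferon-responsive genes (5.13% called against 2.99% of all genes, median -0.061), the chemokine Cxcl9 (-0.60 and -1.08, mean -0.84, SE 0.16, adjusted p = 0.0474) and the factor Irf1 (-1.17 and -0.59, mean -0.88, SE 0.16, adjusted p = 0.0425) were lower, whereas Isg15 stood at -0.95 and 1.31, apart on the 2 arrays. Irf1 lost the call without either day 2 array (adjusted p = 0.0504). Cxcl9 and Irf1 lost their calls without either day 4 array (adjusted p = 0.107 and 0.0999), without day 7 replicate 1 (adjusted p = 0.112 and 0.249) and without day 7 replicate 2 (adjusted p = 0.244 and 0.063).

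Epidermal differentiation genes lay mostly below 0. Of 35 such genes, 2 were called lower (5.71% against 0.637% of all genes) and none higher. Only 4 were above 0 (median -0.50, with -0.16 and -0.87 on the arrays). Sbsn, suprabasin, read 45537 and 44173 in the cyclosporin A channel and 103172 and 105051 in the ethanol channel, with ratios of -1.18 and -1.25 (mean -1.21, SE 0.22, adjusted p = 0.0417), and the cornified envelope gene Lce1a1 stood at -1.23 and -1.26 (mean -1.24, SE 0.22, adjusted p = 0.0416). Lor, loricrin, had ratios of -1.28 and -1.14 with an adjusted p of 0.0542. Krt10 stood at 0.49 and -0.78, on opposite sides of 0. In the cluster of chromosome 3 that holds the S100 and envelope genes, 31 of 44 genes measured were below 0, and the 3 called higher were S100a3, Prr9 and Tchhl1. Prr9 lies between Lor and Sprr2a1 (-0.49), and Tchhl1 between Rptn (-0.52) and S100a11 (0.015). The list median relative to the median gene was -0.53 with loess, -0.13 under median centring and -0.59 with the processed signals, and the count called lower was 0 under median centring, 0 with the processed signals, 0 with the deposited ratios and 0 with trend and robust variance. Among 14 basal keratinocyte genes (7.14% called against 2.99% of all genes, median -0.26), the laminin chain Lamb3 was lower (-1.40 and -1.18, mean -1.29, SE 0.25, adjusted p = 0.0477), with a relative median that turned to 0.25 under median centring. Serpinb10 (-1.32 and -2.10, mean -1.71, SE 0.22, adjusted p = 0.0169) and Serpinb7 (-0.89 and -1.09, mean -0.99, SE 0.19, adjusted p = 0.0486) were lower, and Wfdc18 (2.59 and 1.92, mean 2.25, SE 0.27, adjusted p = 0.0144) and Serpina1d (1.32 and 1.03, mean 1.18, SE 0.13, adjusted p = 0.0114) higher, of 47 protease inhibitors (8.51% called against 2.99% of all genes, median -0.093). Sbsn, Lce1a1, Lamb3, Serpinb10 and Serpinb7 lost their calls without either day 4 array (adjusted p = 0.0528 to 0.11). Sbsn, Lce1a1, Lamb3, Serpinb7, Wfdc18 and Serpina1d lost their calls without day 7 replicate 1 (adjusted p = 0.099 to 0.282). Sbsn, Lce1a1, Lamb3, Serpinb10, Serpinb7, Wfdc18 and Serpina1d lost their calls without day 7 replicate 2 (adjusted p = 0.0515 to 0.239).

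A few muscle genes fell. Of 26 skeletal muscle genes, 4 were called lower (15.4% against 0.637% of all genes). Their list median was -0.38, with -0.17 and -0.74 on the arrays. The giant sarcomere protein Ttn had ratios of -1.2 and -1.61 (mean -1.41, SE 0.18, adjusted p = 0.0168), Tpm2, a tropomyosin, of -1.49 and -1.02 (mean -1.26, SE 0.17, adjusted p = 0.0205), the filament protein Des of -0.79 and -0.97 (mean -0.88, SE 0.13, adjusted p = 0.0268) and the myosin light chain Myl1 of -0.92 and -0.78 (mean -0.85, SE 0.12, adjusted p = 0.0199). All 7 other probes of Ttn gave smaller ratios, from -0.49 to -0.91, and the other probes of Tpm2 and Mylk gave -0.69 and -0.66. The count of skeletal muscle genes called lower was 1 under median centring, 0 with the processed signals, 0 with the deposited ratios and 1 with trend and robust variance, and 3 were called higher under median centring. Acta1 and Ckm, the markers fixed for this tissue along with Myh4 and Tnnt3, stood at 0.057 and -0.79 and -0.53 and -0.90 without a call, and the summed intensity of the 4 markers was 311765 and 205440 in cyclosporin A skin and 315977 and 345352 in ethanol skin. Of 12 smooth muscle and pericyte genes (16.7% called against 2.99% of all genes), Des and the myosin kinase Mylk (-1.46 and -1.12, mean -1.29, SE 0.16, adjusted p = 0.0148) were lower, and Acta2 stood at -0.40 and -0.68 (list median -0.47). The smooth muscle count called lower was 1 under median centring, 0 with the processed signals, 0 with the deposited ratios and 0 with trend and robust variance. The skeletal muscle list's median relative to the median gene was -0.41 with loess, 0.059 under median centring and -0.48 with the processed signals, so that its direction turned under median centring, where Myl1 stood at 0.094; the smooth muscle list's was -0.50 with loess, -0.13 under median centring and -0.35 with the processed signals. The share of muscle in each piece of skin was not measured. Tpm2, Des and Myl1 lost their calls without either day 4 array (adjusted p = 0.0532, 0.0616 and 0.0528). Ttn, Tpm2, Des, Myl1 and Mylk lost their calls without day 7 replicate 1 (adjusted p = 0.0758 to 0.157) and without day 7 replicate 2 (adjusted p = 0.0647 to 0.169).

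Hamp2, a hepcidin gene, had the lowest ratios of the called genes. It read 964 and 1662 in the cyclosporin A channel and 8990 and 7766 in the ethanol channel, with ratios of -3.22 and -2.22 (mean -2.72, SE 0.32, adjusted p = 0.014), or 6.6-fold lower. It was bright in ethanol skin, and the only other call among 15 iron-handling genes (13.3% called against 2.99% of all genes) was Steap1, which was higher. Matrix genes divided, with 3 of 49 higher and 3 lower (12.2% called against 2.99% of all genes, median -0.094). Angptl7, an angiopoietin-like secreted protein, stood at -1.81 and -2.16 (mean -1.98, SE 0.33, adjusted p = 0.0338), tenascin X gene Tnxb at -1.69 and -1.17 (mean -1.43, SE 0.16, adjusted p = 0.0114) and the gelatinase Mmp2 at -0.80 and -1.0 (mean -0.90, SE 0.12, adjusted p = 0.0179). Thbs4, a thrombospondin, stood at 1.32 and 1.89 (mean 1.61, SE 0.26, adjusted p = 0.031), the protease Adamts4 at 1.07 and 1.83 (mean 1.45, SE 0.20, adjusted p = 0.0196) and tenascin C gene Tnc at 1.30 and 0.65 (mean 0.98, SE 0.17, adjusted p = 0.0375). A second probe of Tnxb gave -0.155. The 2 tenascins thus had opposite signs. Clca3a2 (-1.34 and -1.43; mean -1.38, SE 0.17, adjusted p = 0.0156) and the secreted C1qtnf3 (-0.92 and -1.96; mean -1.44, SE 0.25, adjusted p = 0.0358) complete the 15 lowest called genes. Angptl7, Mmp2, Adamts4, Tnc, Clca3a2 and C1qtnf3 lost their calls without either day 4 array (adjusted p = 0.051 to 0.0926). Hamp2, Angptl7, Tnxb, Mmp2, Thbs4, Tnc and Clca3a2 lost their calls without day 7 replicate 1 (adjusted p = 0.0869 to 0.216). Angptl7, Mmp2, Thbs4, Adamts4, Tnc, Clca3a2 and C1qtnf3 lost their calls without day 7 replicate 2 (adjusted p = 0.051 to 0.195).

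The drug's own targets and their pathway were called at a rate near that of all genes. Of 28 calcineurin, NFAT and cyclophilin genes (median 0.013), the cyclophilin-like Ppil1 was the single call, higher at 0.81 and 0.96 (mean 0.89, SE 0.16, adjusted p = 0.0414), or 3.57% against 2.99%. Without adjustment, 10 of these 28 genes had a p under 0.05 by limma, against 5024 of the 22750 genes tested. The count called higher was 12 under median centring, 0 with the processed signals, 0 with the deposited ratios and 0 with trend and robust variance. Ppia, cyclophilin A, stood at -0.064 and 0.43, the calcineurin subunit Ppp3ca at -0.17 and -0.95, Nfatc1 at -1.07 and -0.37 and Rcan1, a feedback inhibitor of calcineurin, at -0.16 and -0.13, none of them called. None of 24 NFAT-driven cytokine and early genes was called (median 0.0065), and Egr1 stood at 1.15 and 0.78. Of the 24, 5 had an unadjusted p under 0.05 by limma, against 5024 of the 22750 genes tested. Ppil1 lost the call without either day 4 array (adjusted p = 0.0679), without day 7 replicate 1 (adjusted p = 0.195) and without day 7 replicate 2 (adjusted p = 0.211). Altogether 17 of the 61 lists with a gene tested had no call, with medians from -0.27 for macrophages to 0.54 for red blood cells, and 44 had at least 1.

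**Figure D4:**
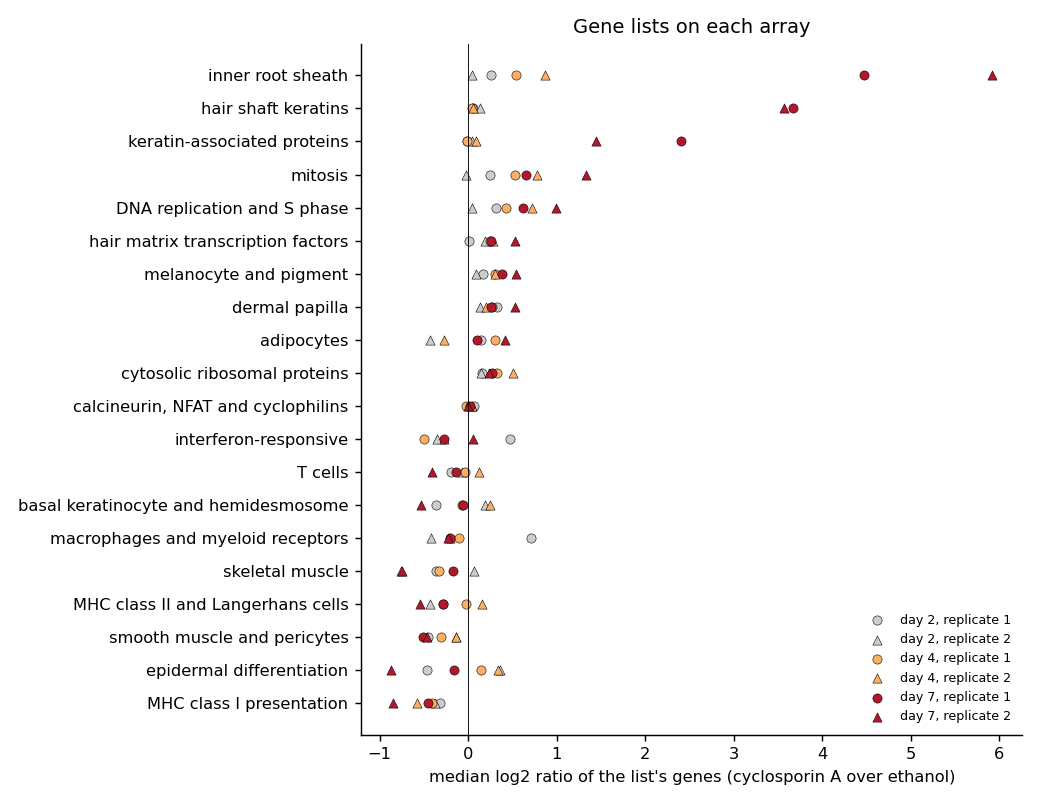
Median log2 ratio of the genes of 20 lists on each of the 6 arrays, grey for day 2, orange for day 4 and dark red for day 7, circles for replicate 1 and triangles for replicate 2. The hair shaft list stood at 3.68 and 3.57 at day 7 and near 0 earlier, whereas the mitosis list was above 0 on both day 4 arrays, and the MHC class I list was below 0 on all 6.

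Days 2 and 4 place the day 7 ratios in time. Day 7 arrays lay on a slide of their own and those of days 2 and 4 on another, so that day 7 and its slide cannot be told apart in these differences; the day 7 fit is shared with both. The difference between day 7 and day 4 was called for 46 genes, all higher at day 7 (0.202% of those tested; 0% lower). By limma without adjustment, 508 genes were higher and 508 lower at p under 0.05; 4 genes were called lower with the processed signals or the deposited ratios and 1 with the replicate block, and up to 9 when an array was left out. The difference between day 7 and day 2 was called for 60 genes, all higher (0.264%; 0% lower), with 874 higher and 522 lower without adjustment, and 1 or 2 lower with those ratios or median centring and up to 12 when an array was left out. Leaving out arrays gave 17 to 78 calls for the first difference and 28 to 88 for the second, lowest without a day 4 array and highest without day 7 replicate 2.

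Several hair genes were near 0 until day 7. Prr9 stood at -0.059 at day 2, -0.033 at day 4 and 4.75 at day 7, with a difference from day 4 of 4.78, adjusted p = 0.00181. Krt34 went from 0.12 at day 4 to 4.47 (4.35, adjusted p = 0.00321) and Padi3 from 0.03 (4.39, adjusted p = 0.00135). Krt33a stood higher at day 4, at 0.92 (5.10, adjusted p = 0.00411). Krt33a and Krt34 were not well above background in ethanol skin at day 7, so their differences are fitted values and not measured sizes. Krt35, by contrast, averaged 1.71 at day 4. Inner root sheath keratins differed among themselves at that time, with Krt26 at 0.13 and Krt27 at 0.70. Krt71 stood at 1.83 and 2.26 on the day 4 arrays and Krt25 at 2.09 and 2.05. The later difference was called for Krt71 (4.14, adjusted p = 0.000982) and Krt27 (5.02, adjusted p = 0.0015) and not for Krt25 (3.13, adjusted p = 0.0861), which differed from day 2 (4.95, adjusted p = 0.00879). Fbp1 differed from both days (4.40, adjusted p = 0.000982 against day 4). For pigment and division genes no difference from day 4 or day 2 was called among Pmel (0.61, adjusted p = 0.935 against day 4), Dct (0.81, adjusted p = 0.935), Plk1 (0.61, adjusted p = 0.935) and Birc5 (0.54, adjusted p = 0.935). Pmel stood at 1.89 and 0.90 at day 2 and 2.09 and 2.16 at day 4. Among lower genes, Hamp2 stood at 0.38 and -0.21 at days 2 and 4, and its difference from day 4 was -2.52, adjusted p = 0.251, not called. H2-D1 was below 0 on each earlier day (-0.49 and -0.67).

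**Figure D5:**
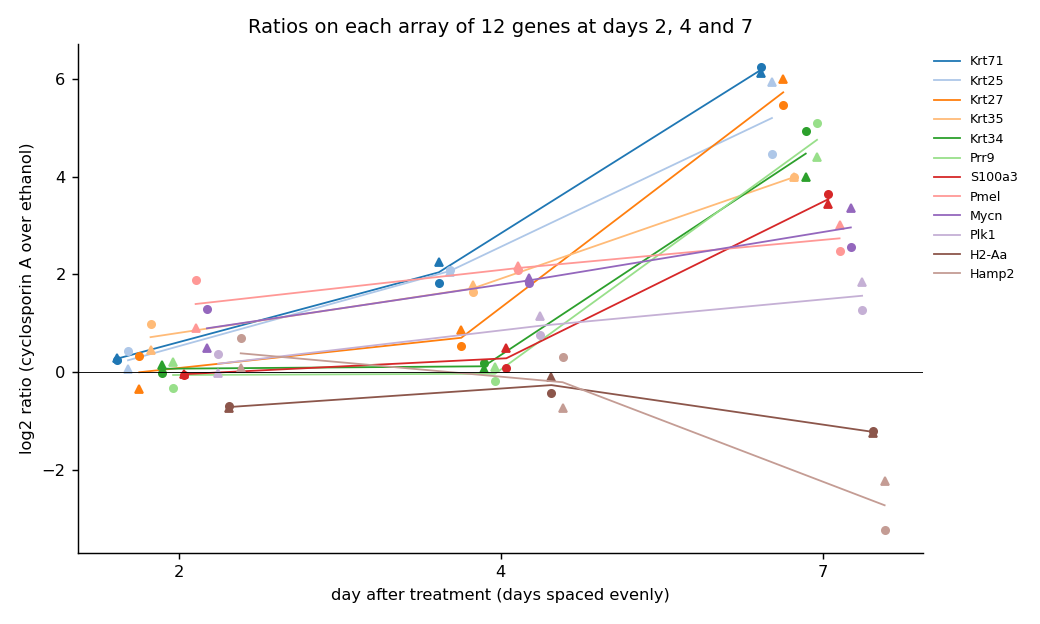
Log2 ratios of 12 genes on every array, circles for replicate 1 and triangles for replicate 2, with lines through the daily means; days are spaced evenly on the horizontal axis and genes are shifted sideways. Krt34, Prr9 and S100a3 lie near 0 until day 4 and at 3.44 or above at day 7, while Krt71, Krt25, Krt35 and Pmel are above 1 at day 4.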

How the data were processed

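RNA of 6 cyclosporin A and 6 ethanol skin samples was hybridized pairwise to 6 Agilent arrays (45018 spots, 1639 of them controls, left out). The deposited scanner files hold each spot's median intensity and local background, made by the authors. The submitters' processing notes name Agilent Feature Extraction 9.1. The deposited value table holds its log10 ratios, equal to the scanner files' (largest difference 0). Intensities were corrected with normexp (offset 50) and loess within arrays (limma 3.58.1, R 4.3.3, the data.table package, version 1.17.8). The intensities printed here are the 2 channels after normalization between arrays of their mean and include that offset. Spots marked as outliers, 126 and 23 on the day 7 arrays, were dropped, and none was saturated.

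A probe was kept where both arrays of some day had it well above background in at least 1 channel (27938 of 41174), named through RefSeq accessions of GRCm38.p6 (22951 probes) or synonyms (67), and the brightest probe stood for a gene, giving 13473 with a symbol and 9278 without; 92 lacked a ratio on a day 7 array. One mean per day was fitted to all 6 arrays with limma (3 residual degrees of freedom), and p-values were adjusted over all genes. The script was tested on simulated data.

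The share of probes well above background on the day 7 arrays was 43.5% and 54.1% for ethanol RNA and 59.9% and 65.6% for cyclosporin A RNA; the number of arrays limits the precision. Titles number the replicates 1 and 2, while every description reads 1 of 2; titles were used. The difference between replicates 1 and 2 correlated over genes at 0.008 for days 2 and 4, -0.278 for days 2 and 7 and -0.023 for days 4 and 7. These correlations cannot tell whether the numbers pair arrays.

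The 62 gene lists, of which canonical histones matched no symbol, and the rule for named genes were chosen with earlier results of these data known. The rule took the 15 highest and 15 lowest called genes with a symbol, up to 4 called genes and the key genes of each list, the 6 highest of each difference between days, the 6 genes whose day 7 arrays lay farthest apart and the 6 brightest calls; others were chosen after their values were seen. Some items are not reported here. Alternatives covered normalization, background, filter, probe choice, variance model, replicate block and single arrays.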

Additional observations from a re-analysis of the deposited data

Results flagged for a closer look

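The difference between day 7 and day 4 was itself tested, and 46 genes passed; the difference from day 2 gave 60. All named genes below were higher at day 7, day 7 lay on another slide than days 2 and 4, and values are differences of log2 ratios from limma's fit. The differences from day 4 among the keratins were 4.14 for Krt71, 5.10 for Krt33a, 5.02 for Krt27, 4.35 for Krt34, 2.28 for Krt35, 3.74 for Krt86, 3.25 for Krt26, 3.10 for Krt87 and 2.65 for Krt31. The differences from day 4 among the keratin-associated protein genes were 3.65 for Krtap5-4, 3.74 for Krtap4-16, 3.50 for Krtap5-1, 3.04 for Krtap4-13, 2.48 for Krtap4-2 and 1.96 for Krtap1-5. The differences from day 4 among the other genes were 4.40 for Fbp1, 4.78 for Prr9, 4.39 for Padi3, 3.23 for Gjb2, 3.25 for S100a3, 2.64 for Col11a1, 1.38 for Bambi, 3.42 for Crym, 3.14 for Sct, 3.02 for Ly6g6d, 2.42 for Cryba4 and 1.87 for Lrrc75b. The differences from day 2 among the keratins were 5.91 for Krt71, 5.42 for Krt33a, 5.72 for Krt27, 4.95 for Krt25, 4.40 for Krt34, 3.28 for Krt35, 3.67 for Krt86, 3.39 for Krt26, 2.95 for Krt87 and 2.51 for Krt31. The differences from day 2 among the keratin-associated protein genes were 3.83 for Krtap5-4, 3.75 for Krtap4-16, 3.61 for Krtap5-1, 3.02 for Krtap4-13, 2.39 for Krtap13-1, 2.17 for Krtap4-2 and 1.97 for Krtap1-5. The differences from day 2 among the other genes were 5.10 for Fbp1, 4.81 for Prr9, 4.41 for Padi3, 4.04 for Gjb2, 3.58 for S100a3, 3.01 for Col11a1, 2.21 for Msx2, 1.76 for Bambi, 3.10 for Crym, 3.22 for Sct, 2.73 for Lrrc15, 3.13 for Ly6g6d, 2.25 for Cryba4, 1.95 for Lrrc75b, 1.64 for Edn2, 1.80 for Mex3a and 1.67 for Adamts18. For Krt33a, Krt34, Krtap4-16, Krt26, Krtap4-13, Krt31, Krtap4-2, Cryba4, Krtap1-5, Krtap13-1 and Adamts18, which were not well above background in ethanol skin at day 7, these are fitted differences over an undetected channel and not measured sizes.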

How the results depend on the processing

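The count of genes called at day 7, 681, was 4968 under median centring, 287 with the deposited ratios, 320 after scale normalization, 388 where both channels had to be above background, 338 with trend and robust variance and 447 with the day 7 arrays alone; without single arrays it ranged from 147 to 689. The difference from day 4, 46, was 26 without background correction and 18 with both channels above background, and ranged from 17 to 78 without single arrays. The difference from day 2, 60, was 39 without background correction, 23 with both channels above background and 34 with trend and robust variance, and ranged from 28 to 88. Where both channels had to be above background, only 14524 genes were tested at day 7, against 22750 in the main fit. Counts under that setting therefore come from a smaller set of genes. With the replicate block, 329 genes were called at day 7, 38 for the difference from day 4 and 39 for that from day 2. Whether the replicate numbers pair the arrays is not known. Myl1, Cox6a2 and Dbp turned to 0.094, 0.16 and 0.54 under median centring, Rpl7a to -0.013 as a mean of probes, and Hes5, uncalled at -0.22, ranged from -1.80 to 1.37 without single arrays. The cause was not tested, beyond the construction of each setting. Of the 79 genes called without any single array, 30 were also called in all 11 other settings, a count chosen after seeing the data. Among those 11 settings, 1 required both channels above background at day 7. Genes not well above background in ethanol skin, such as Krt33a and Krt34, could not be called there. The fall from 79 to 30 was therefore partly fixed by that setting, and how far was not counted. The filter, the processed signals and the mean of probes left the 3 counts within 1.5 times. Of the genes called higher, 96 were not well above background in ethanol skin and give bounds in place of folds.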

Other observations

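Of the 681 genes called at day 7, 175 were probes without a gene symbol, and 32 of the 79 called without any single array were among them. The highest ratios of the whole comparison belonged to such a probe, A_52_P468068, at 6.55 and 6.50 on the arrays and at -0.0093 and -0.48 on average at days 4 and 2. Another, A_51_P488780, had ratios of 5.38 and 5.65, and it stood at 1.95 at day 4.

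Single lists added further calls, against 2.99% of all genes called. The circadian clock list had 1 of 18 called (5.56%), heat shock and chaperones 1 of 18 (5.56%) and glutathione and xenobiotic genes 1 of 38 (2.63%). Desmosome genes had 2 of 19 called (10.5%), collagens 2 of 34 (5.88%) and respiratory chain genes 1 of 77 (1.3%). The circadian regulator Nfil3 was higher (1.0 and 1.18; mean 1.09, SE 0.14, adjusted p = 0.0168), while the clock genes Dbp and Arntl stood at -0.25 and -0.38 and 0.079 and -0.46. The mitochondrial chaperonin Hspe1 was higher (0.69 and 0.85; mean 0.77, SE 0.13, adjusted p = 0.0338), as was the glutathione-dependent Mgst3 (0.70 and 0.73; mean 0.71, SE 0.13, adjusted p = 0.0418) and the desmoglein Dsg2 (0.65 and 0.65; mean 0.65, SE 0.11, adjusted p = 0.0338), whose second probe gave 0.13. The collagen Col24a1 was higher (0.62 and 0.80; mean 0.71, SE 0.13, adjusted p = 0.0465, at least 1.64-fold). Cox6a2, the muscle form of a cytochrome oxidase subunit, was lower (-0.51 and -0.72; mean -0.61, SE 0.12, adjusted p = 0.0486). Chosen after their values were seen, Txnip (-1.13 and -1.25), the kinase Prkcd (-1.13 and -0.86) and the tight junction genes Cldn23 (-1.13 and -1.02) and Tjp3 (-1.0 and -0.95) were lower. Col24a1 and Cox6a2 lost their calls without either day 2 array (adjusted p = 0.0621 and 0.0628). Nfil3, Hspe1, Mgst3, Dsg2, Col24a1, Cox6a2, Txnip, Prkcd, Cldn23 and Tjp3 lost their calls without either day 4 array (adjusted p = 0.0528 to 0.111), without day 7 replicate 1 (adjusted p = 0.099 to 0.22) and without day 7 replicate 2 (adjusted p = 0.0715 to 0.243).

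The 6 named genes, well above background in both channels, that differed most between the day 7 arrays were not called. Tcaf1 had ratios of 4.08 and -0.15, with a cyclosporin A intensity of 3420 on replicate 1 and 170.1 on replicate 2. Slc28a2, a nucleoside transporter, had ratios of 3.44 and -0.19, and Nek8 of 2.71 and 0.12. Cpsf4 stood at 0.30 and -2.44 and Cyp2g1, a cytochrome P450, at -1.90 and -4.50. For Hes5, at -1.80 and 1.37, the ethanol intensity differed more, at 930.3 and 159.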
